A study of Mus musculus with 4 samples.

Results

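Purinergic receptors and ectonucleotidases were examined as a group of 10 genes in myeloid cells sorted from tumours of EO771, a mouse mammary carcinoma line. The 10 genes (P2ry6, P2ry10, P2ry12, P2ry13, P2ry14, P2rx4, P2rx7, Adora2a, Entpd1 and Enpp4) were taken by symbol from the deposited expression table, and all 10 were present among its 13976 genes. RNA was sequenced from 4 populations: type 1 conventional dendritic cells (DC) bearing CD103 (cDC1), type 2 ones bearing CD11b (cDC2), DC positive for CD11b with an intermediate level of CD103 (CD103int DC), and macrophages, with 1 library for each. The labels name the tumour and the sorted population for each library, and they state no strain, age, sort gate or number of mice or cells. They also do not state whether the mice had received the heterodimeric interleukin that the title of the study names. No population had a second library, so no difference was checked against replicate error and no test between populations was run.

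Cells release ATP and other nucleotides when they are stressed, damaged or activated. P2X receptors are channels opened by ATP, P2Y receptors are G protein-coupled receptors for ADP, UDP, UDP-sugars and related ligands, and P1 receptors such as the Adora2a product sense adenosine. Enzymes on the cell surface shorten this signal: CD39, the product of Entpd1, removes phosphates from ATP and ADP to leave AMP, and CD73, the product of Nt5e, turns AMP into adenosine, which dampens many immune cells.

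The CD103int DC library carried the ATP channel genes P2rx4 and P2rx7 and the CD39 gene Entpd1 at more than 2 times their cDC1 level, and the receptor genes P2ry10, P2ry12 and P2ry13 at less than 0.5 times that level. From the cDC2 library it stood apart by the 2-fold rule given next in Enpp4 alone of the 10 genes, with P2ry13 just short of it. Compared with macrophages it had less of P2ry12, P2ry13 and the adenosine receptor gene Adora2a. Differences were taken on log2(CPM + 1), where CPM are counts per 1000000 reads as scaled by the authors, and the rule of size was a difference of 1 or more (2-fold), up or down, among genes with at least 1 CPM in either library of the pair. All 10 genes passed that minimum in all 4 libraries.

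Against cDC1, 6 of the 10 genes were at least 2-fold apart in the CD103int DC, beside 16.8% of 12943 genes in the table. Higher in the CD103int DC were 3 of them (10.1% of all genes) and lower were 3 (6.77% of all genes). Against cDC2 it was 1 of 10, lower in the CD103int DC, beside 2.93% of 12682 genes in either direction (1.95% higher and 0.986% lower in the CD103int DC). Against macrophages it was 3 of 10, all lower in the CD103int DC, beside 11.8% of 12622 genes (5.17% higher and 6.62% lower). The cDC1 and cDC2 libraries were that far apart in 4 of the 10, with 1 higher in cDC1, beside 18.6% of 13021 genes (10.6% higher in cDC2). For cDC1 and macrophages it was 4, with 1 higher in cDC1, beside 25.7% of 12927 genes (11.4% higher in cDC1 and 14.3% in macrophages). For cDC2 and macrophages it was 2, both higher in macrophages, beside 7.11% of 12671 genes (2.45% higher in cDC2 and 4.66% in macrophages). The median difference over the 10 genes was 0.10 for the CD103int DC minus cDC1, -0.32 for the CD103int DC minus cDC2 and -0.29 for the CD103int DC minus macrophages, where the medians over all genes tested were 0.013, 0.00027 and -0.00052. The medians of the other pairs were -0.58 (cDC1 minus cDC2), -0.38 (cDC1 minus macrophages) and 0.29 (cDC2 minus macrophages), beside -0.0069, -0.0062 and 0.0014 over all genes. These 6 pairs share libraries and are not independent of each other.

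**Figure D1:**
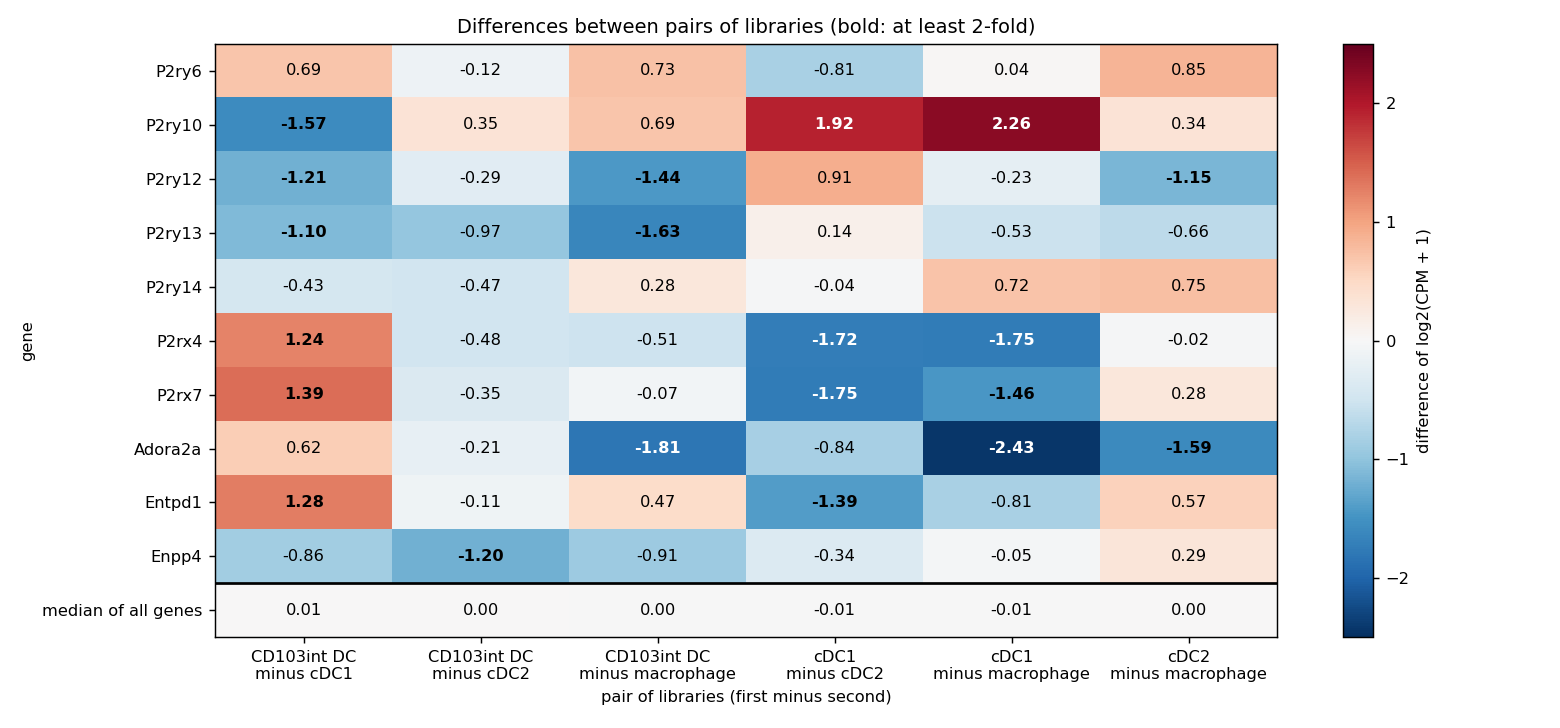
Differences of log2(CPM + 1) for the 10 genes (rows) in the 6 pairs of libraries (columns, first library minus second), with the median over all genes tested in the bottom row and differences of at least 1 in bold. The column of the CD103int DC minus cDC2 holds 1 bold value (Enpp4, -1.20), and that of the CD103int DC minus cDC1 holds 6.

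The depth behind these values was estimated from the regular step between low values, and came to between 44425908 (cDC1) and 63817502 (macrophage) reads per library, so that a level of 10 CPM stood for 464 to 574 reads. The range in parentheses behind each level (Poisson) or fold (binomial) is a 95% interval from these reads. Reads copied by PCR are not separate molecules, so such ranges hold counting error alone. In bulk RNA, fewer cells of a type and less RNA per cell cannot be told apart. Sums of marker genes placed the cDC1 library apart: 9 cDC1 markers, among them Xcr1 and Clec9a, summed to 2949 CPM there and to between 638 and 852 CPM in the other libraries. Wdfy4 alone made 1728 of the 2949 CPM. All but Batf3 (16.1 CPM, against 16.2 in CD103int DC) were highest in cDC1. By such sums the library labelled cDC2 was not set apart from macrophages. The 9 macrophage markers summed to 3890 CPM in cDC2 and to 3607 CPM in the macrophage library. In the cDC2 library the 6 cDC2 markers summed to 1775 CPM, against 1454 to 1988 CPM in the other libraries, and did not go 1 way. Cd209a, Cd300a, Irf4 and Sirpa were lower in it than in macrophages (Cd209a 31.5 against 68.9 CPM). Mgl2 (368 against 120 CPM) and Clec4a4 (1.17 against 0.810 CPM) were higher. Of these 6 markers, Irf4 and Cd209a alone were highest in the cDC1 library, at 152 and 257 CPM. That library listed 454 genes at 0, against 10 to 20 in the others. Rescaling the columns to equal totals moved the median difference over all genes by 0.24 (CD103int DC minus macrophages), 0.25 (cDC2 minus macrophages), 0.34 (cDC1 minus macrophages) and -0.10 (CD103int DC minus cDC1). The macrophage column bears another name prefix than the DC columns. What it marks is not stated, and it cannot be told apart from the population.

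Both ATP-gated channel genes among the 10 were lowest in cDC1. P2rx4 encodes a channel found on the cell surface and on lysosomes (ENSMUSG00000029470.15, chromosome 5, 122707544 to 122729738, plus strand, in GRCm38 as are all positions given). Its level was 119.7 (117 to 123) CPM in CD103int DC, 50.1 (48.2 to 52.2) in cDC1, 168 (164 to 172) in cDC2 and 171 (167 to 174) in macrophages. The CD103int DC thus lay between cDC1 and the other pair, 2.39-fold (2.28 to 2.501) above cDC1, 1.40-fold (1.36 to 1.45) below cDC2 and 1.43-fold (1.38 to 1.47) below macrophages. The cDC2 and macrophage levels were not separated by counting error (ratio 1.02, 0.986 to 1.05), and their order changed when the columns were rescaled to equal totals.

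P2rx7 encodes the channel that needs high ATP and that leads to inflammasome activation in macrophages (ENSMUSG00000029468.17, chromosome 5, 122643911 to 122691432, plus strand). It stood at 47.8 (46.1 to 49.6) CPM in CD103int DC, 17.6 (16.4 to 18.8) in cDC1, 61.4 (59.2 to 63.7) in cDC2 and 50.2 (48.4 to 52.2) in macrophages. The cDC1 library was again the low one, by 2.72-fold (2.52 to 2.94) against the CD103int DC, 3.49-fold (3.23 to 3.77) against cDC2 and 2.86-fold (2.64 to 3.09) against macrophages. Counting error did not separate CD103int DC from macrophages (ratio 1.05, 0.996 to 1.11), and with columns rescaled to equal totals the difference of -0.07 between them became 0.19. The start of P2rx4 lies 16111 bases downstream of the end of P2rx7, on the same strand. Per kb of annotated exon, P2rx4 exceeded P2rx7 in every library, by 2.42-fold in cDC1, 2.32-fold in cDC2, 2.13-fold in CD103int DC and 2.89-fold in macrophages.

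The 250 bases before the first annotated start of each of these neighbours are shown because both genes had the same low library; sequences are from RefSeq on build GRCm38.p6, and promoters were found there for 8 of the 10 genes. They are written 5′ to 3′ on the gene's strand. Capitals would mark the ETS motif GGAAGT, searched on both strands, which 19.7% of 32817 promoters of that length hold; neither of these holds it.
P2rx7 (chr5:122643677-122643926, plus strand): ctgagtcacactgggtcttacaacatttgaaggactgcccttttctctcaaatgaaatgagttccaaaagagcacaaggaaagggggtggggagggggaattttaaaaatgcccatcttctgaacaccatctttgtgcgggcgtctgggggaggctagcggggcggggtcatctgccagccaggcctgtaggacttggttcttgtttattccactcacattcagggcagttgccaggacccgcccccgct
P2rx4 (chr5:122707294-122707543, plus strand): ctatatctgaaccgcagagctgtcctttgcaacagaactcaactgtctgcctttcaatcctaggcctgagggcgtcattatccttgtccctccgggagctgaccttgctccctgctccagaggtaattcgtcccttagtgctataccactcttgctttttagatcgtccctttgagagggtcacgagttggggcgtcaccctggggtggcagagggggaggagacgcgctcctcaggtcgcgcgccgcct
The P2rx7 stretch held, near its upstream end, a match to the AP-1 motif TGANTCA (6.75% of promoters). Neither stretch held the ETS-IRF composite element (2.30% of promoters), the pair of IRF half-sites (2.97%) or the CRE TGACGTCA (1.55%), which says only that these letters are not in these windows.

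Of the 5 P2Y genes among the 10, P2ry10 was the one with its highest level in cDC1 as deposited. With the columns rescaled to equal totals, P2ry12 and P2ry14 were highest there too. P2ry10 encodes a receptor for lysophosphatidylserine, a lipid, and lies on chromosome X (ENSMUSG00000050921.12, 107088492 to 107104974, plus strand). P2ry10 was at 75.8 (73.6 to 78.1) CPM in CD103int DC, 227 (223 to 231) in cDC1, 59.4 (57.2 to 61.7) in cDC2 and 46.7 (44.9 to 48.6) in macrophages. The cDC1 level exceeded that of the CD103int DC 2.995-fold (2.89 to 3.10), that of cDC2 3.82-fold (3.67 to 3.99) and that of macrophages 4.86-fold (4.66 to 5.08). Among the libraries other than cDC1, the CD103int DC was highest, 1.28-fold (1.22 to 1.34) above cDC2 and 1.62-fold (1.55 to 1.71) above macrophages.

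The neighbouring paralog P2ry10b (ENSMUSG00000054293.10, chromosome X, 107148927 to 107173661, plus strand), which starts 43952 bases beyond the end of P2ry10, differed from it in pattern. Its levels were 35.7 (34.1 to 37.2) CPM in CD103int DC, 11.3 (10.4 to 12.3) in cDC1, 33.6 (31.9 to 35.3) in cDC2 and 46.9 (45.1 to 48.7) in macrophages. P2ry10b was therefore lowest where P2ry10 was highest, and highest in macrophages, where P2ry10 was lowest. Per kb of exon, P2ry10 exceeded P2ry10b 23.3-fold in cDC1, 2.47-fold in CD103int DC, 2.06-fold in cDC2 and 1.16-fold in macrophages. The estimated reads of P2ry10 were a whole number in cDC1 and not in the other libraries. How the authors' counting treated reads that fit both genes is not given in the sources used here. Of the 2979 different 50-base stretches in P2ry10 transcripts, 113 (3.79%) also occurred in P2ry10b transcripts, and the longest transcripts were identical at 63.8% of 2692 aligned bases. The sum of both genes was 111 CPM in CD103int DC, 238 in cDC1, 93.0 in cDC2 and 93.6 in macrophages, so the cDC1 library stayed highest, by 2.14-fold (2.07 to 2.21) over the CD103int DC.

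Of the 2 listed promoters of P2ry10 and the 3 of P2ry10b, the 1 holding GGAAGT in each gene is shown. They were picked for that motif and because P2ry10 was highest and P2ry10b lowest in cDC1. Both starts lie downstream of the first base of the gene. Capitals mark GGAAGT on either strand, here read as its reverse complement.
P2ry10, last listed start (chrX:107089083-107089332, plus strand): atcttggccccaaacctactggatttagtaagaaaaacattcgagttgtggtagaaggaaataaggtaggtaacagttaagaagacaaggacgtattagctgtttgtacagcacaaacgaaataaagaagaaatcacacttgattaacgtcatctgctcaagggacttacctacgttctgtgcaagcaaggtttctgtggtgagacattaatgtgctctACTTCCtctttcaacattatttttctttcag
P2ry10b, last listed start (chrX:107149365-107149614, plus strand): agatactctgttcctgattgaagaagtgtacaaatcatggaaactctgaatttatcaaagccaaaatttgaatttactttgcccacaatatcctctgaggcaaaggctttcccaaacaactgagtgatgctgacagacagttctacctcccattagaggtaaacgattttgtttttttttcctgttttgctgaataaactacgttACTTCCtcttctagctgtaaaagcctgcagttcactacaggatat
The match began 31 bases before the start in P2ry10 and 45 bases before it in P2ry10b. In both it was also a match to the longer GAGGAAGT, a PU.1-type ETS sequence that contains GGAAGT. The longer sequence was searched after these stretches had been read, and 2.44% of all promoters hold it. Both stretches were picked for GGAAGT, however, and of the 6475 promoters with GGAAGT, 801 hold the longer sequence. The first listed P2ry10 promoter and the other P2ry10b promoters held no GGAAGT. The first listed promoter of each paralog held an AP-1 match (6.75% of promoters). These shares are per promoter, and a gene with several starts has more windows to match. A match is a description of letters and shows no binding.

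**Figure D2:**
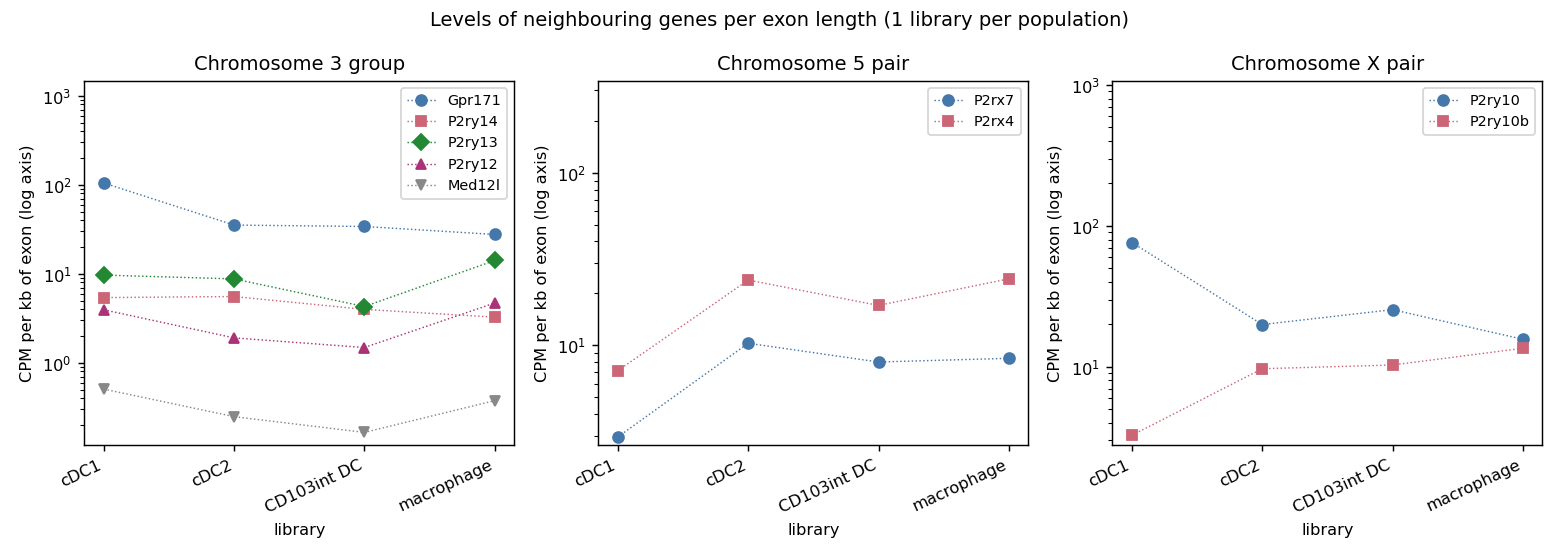
Levels of neighbouring genes in CPM per kb of exon (y, log axis) in the 4 libraries (x), for the group on chromosome 3, the pair on chromosome 5 and the pair on chromosome X; points are single libraries and dotted lines only join the points of 1 gene. P2ry10 and P2ry10b stood 23.3-fold apart in cDC1 and 1.16-fold apart in macrophages, whereas P2rx4 and P2rx7 kept a ratio between 2.13 and 2.89.

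A row of P2Y genes on the minus strand of chromosome 3 included P2ry14, P2ry13 and P2ry12, and P2ry12 and P2ry13 were both lowest in the CD103int DC. P2ry12 (ENSMUSG00000036353.13, 59216272 to 59262871) encodes the ADP receptor of platelets and microglia that antiplatelet drugs block. It was at 3.78 (3.29 to 4.32) CPM in CD103int DC, 10.03 (9.16 to 10.96) in cDC1, 4.85 (4.24 to 5.53) in cDC2 and 11.97 (11.1 to 12.9) in macrophages. The CD103int DC level was 3.17-fold (2.71 to 3.71) below that of macrophages and 2.65-fold (2.26 to 3.13) below that of cDC1, but only 1.28-fold (1.06 to 1.55) below that of cDC2. The cDC2 level lay 2.47-fold (2.12 to 2.88) below macrophages, a log2(CPM + 1) difference of -1.15 that shrank to -0.90 with equal totals and -0.96 with equal protein-coding totals, under the 2-fold rule. In turn the difference of cDC1 from cDC2 passed the rule with equal totals (1.01, from 0.91 as deposited). The difference of cDC1 from macrophages (-0.23) changed sign under these same rescalings.

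P2ry13 (ENSMUSG00000036362.2, 59207892 to 59210882), the gene of a second ADP receptor, lies 5389 bases from P2ry12. It was at 10.8 (9.999 to 11.7) CPM in CD103int DC, 24.4 (23.1 to 25.9) in cDC1, 22.2 (20.8 to 23.6) in cDC2 and 35.7 (34.1 to 37.3) in macrophages. The CD103int DC library was the low one, 3.29-fold (3.01 to 3.61) below macrophages, 2.26-fold (2.05 to 2.49) below cDC1 and 2.05-fold (1.85 to 2.26) below cDC2. On log2(CPM + 1) the last difference was -0.97 and so just missed the 2-fold rule, which it met at -1.03 with an added 0.1 in place of 1. Per kb of exon P2ry13 exceeded P2ry12 between 2.45-fold (cDC1) and 4.60-fold (cDC2).

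The promoters of this pair are shown because both genes were lowest in the CD103int DC. Capitals mark GGAAGT.
P2ry12 (chr3:59262986-59263235, minus strand): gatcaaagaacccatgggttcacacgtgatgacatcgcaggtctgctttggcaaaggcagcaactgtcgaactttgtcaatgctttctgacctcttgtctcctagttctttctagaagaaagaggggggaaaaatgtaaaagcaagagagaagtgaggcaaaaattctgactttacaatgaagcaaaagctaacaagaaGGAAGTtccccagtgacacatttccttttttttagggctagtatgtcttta
P2ry13 (chr3:59210883-59211132, minus strand): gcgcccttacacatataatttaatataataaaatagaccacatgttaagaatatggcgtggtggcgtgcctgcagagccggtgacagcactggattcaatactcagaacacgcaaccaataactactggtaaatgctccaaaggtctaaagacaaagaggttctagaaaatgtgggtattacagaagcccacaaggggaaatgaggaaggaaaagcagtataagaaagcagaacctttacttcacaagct
The P2ry12 stretch held 1 match, beginning 51 bases before the start, and the P2ry13 stretch held none. Neither held any other motif searched.

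P2ry14 (ENSMUSG00000036381.13, 59113855 to 59153618), whose product senses UDP-glucose, did not share that pattern. Its levels were 44.0 (42.3 to 45.8) CPM in CD103int DC, 59.8 (57.6 to 62.0) in cDC1, 61.4 (59.2 to 63.7) in cDC2 and 36.0 (34.4 to 37.7) in macrophages. The macrophage library was lowest, and all libraries lay within 1.71-fold of each other. Counting error did not separate cDC1 from cDC2 (ratio 1.03, 0.976 to 1.08), and their order changed with equal totals. With equal totals the differences of cDC1 (1.08) and cDC2 (1.02) from macrophages passed the 2-fold rule that they missed as deposited (0.72 and 0.75). Gpr171, the next gene of the row, 12033 bases from P2ry14, was at 233 CPM in cDC1 and between 61.6 and 78.5 CPM elsewhere, so that like P2ry10 it was highest in cDC1 and lowest in macrophages.

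Med12l runs along the opposite strand across this whole group, and its exons overlap those of P2ry12 by 9 bases and those of P2ry13 and P2ry14 by 0. Med12l stood at 2.11 CPM in CD103int DC, 6.46 in cDC1, 3.17 in cDC2 and 4.79 in macrophages, so it too was lowest in the CD103int DC. The strand setting of the counting is not given in the sources used here, and the part of Med12l reads in these values was not tested.

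P2ry6 encodes the UDP receptor that drives phagocytosis in microglia (ENSMUSG00000048779.5, chromosome 7, 100937630 to 100974649, minus strand). It was at 119.3 (117 to 122) CPM in CD103int DC, 73.6 (71.2 to 76.1) in cDC1, 129.9 (127 to 133) in cDC2 and 71.7 (69.5 to 74.0) in macrophages. The 2 CD11b+ DC libraries were thus higher than the other pair, with the CD103int DC 1.62-fold (1.56 to 1.69) above cDC1 and 1.66-fold (1.60 to 1.73) above macrophages, both under 2-fold. The difference of cDC2 from macrophages was 0.85 as deposited and 1.12 with equal totals. Per kb of exon P2ry6 was the highest of the 10 genes in cDC2 (45.0 CPM per kb) and in CD103int DC (41.3), where Entpd1 came next (42.5 and 39.5).

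**Figure D3:**
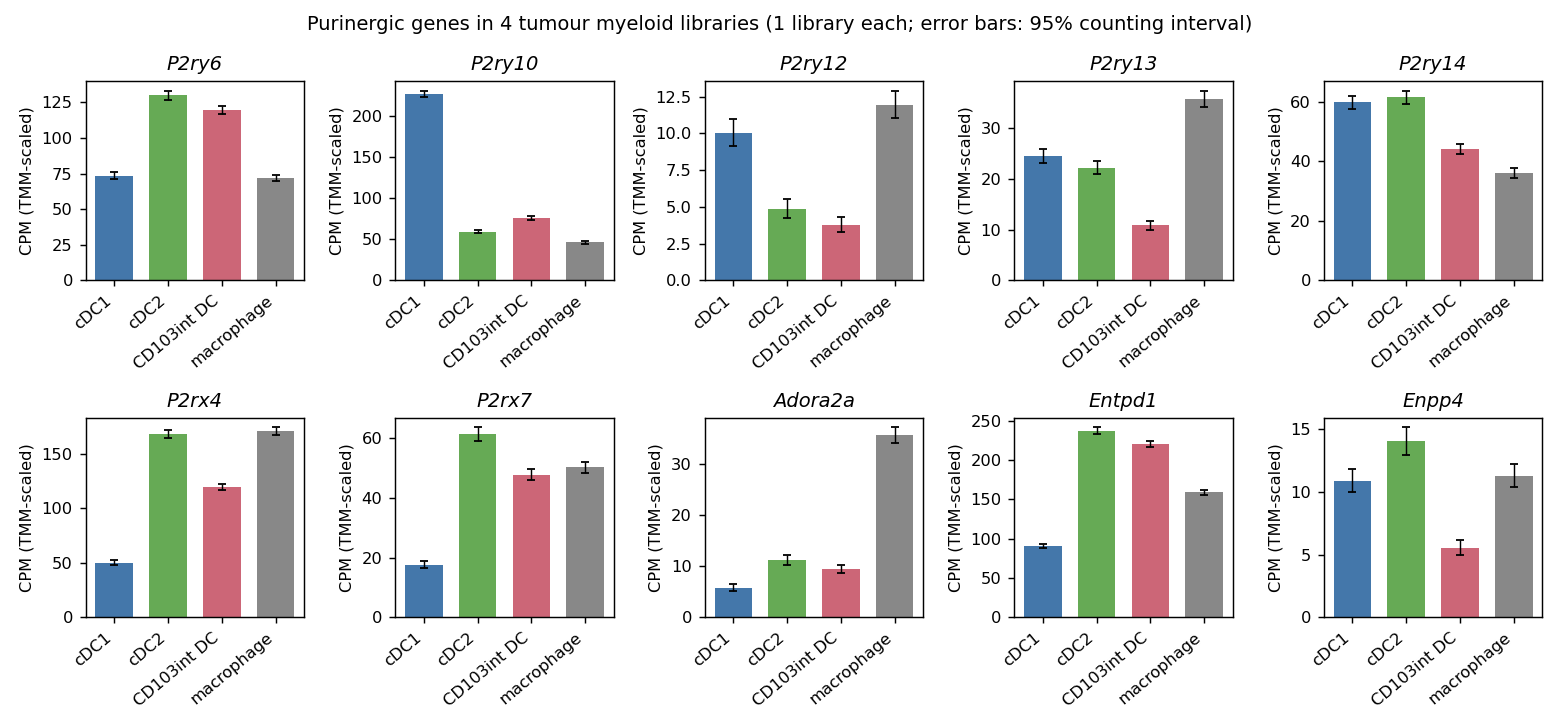
Level of each of the 10 genes in CPM (y, linear from 0) in the 4 libraries (x); bars are single libraries and error bars are 95% counting intervals. The cDC1 bar is lowest for P2rx4, P2rx7, Adora2a and Entpd1, and the CD103int DC bar is lowest for P2ry12, P2ry13 and Enpp4.

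Adora2a, the gene of an adenosine receptor that raises cyclic AMP and restrains inflammatory responses, was set apart in macrophages (ENSMUSG00000020178.6, chromosome 10, 75316877 to 75334784, plus strand). It was at 9.46 (8.68 to 10.3) CPM in CD103int DC, 5.79 (5.14 to 6.50) in cDC1, 11.1 (10.2 to 12.1) in cDC2 and 35.6 (34.0 to 37.2) in macrophages. Macrophages exceeded cDC1 6.14-fold (5.42 to 6.98), the CD103int DC 3.76-fold (3.42 to 4.14) and cDC2 3.20-fold (2.90 to 3.53). The range over the libraries, 2.43 on log2(CPM + 1), was the widest among the 10 genes, followed by P2ry10 at 2.26. The related receptor gene Adora2b was also highest in macrophages, at 47.2 CPM against 18.2 in cDC1, 20.9 in cDC2 and 29.1 in CD103int DC. The receptor gene Adora3 ran otherwise, at 10.4 CPM in CD103int DC, 16.8 in cDC1, 5.76 in cDC2 and 5.50 in macrophages. Per kb of exon Adora2b exceeded Adora2a in all 4 libraries, between 2.20-fold in macrophages and 5.23-fold in cDC1.

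Entpd1 was among the most abundant of the 10 genes (ENSMUSG00000048120.16, chromosome 19, 40612366 to 40741602, plus strand). It stood at 220 (216 to 224) CPM in CD103int DC, 90.2 (87.5 to 92.9) in cDC1, 237 (233 to 242) in cDC2 and 159 (156 to 163) in macrophages. The cDC1 library was lowest, 2.44-fold (2.36 to 2.53) below the CD103int DC and 2.63-fold (2.54 to 2.73) below cDC2, whereas the CD103int DC lay 1.38-fold (1.35 to 1.42) above macrophages. The next enzyme of the chain, the CD73 gene Nt5e, was close to the minimum of 1 CPM, at 1.39 (1.10 to 1.73) in CD103int DC, 1.77 (1.42 to 2.19) in cDC1, 2.03 (1.64 to 2.48) in cDC2 and 1.23 (0.951 to 1.56) in macrophages. Per kb of exon Entpd1 exceeded Nt5e 78.4-fold in cDC1, 180.6-fold in cDC2, 244-fold in CD103int DC and 199.8-fold in macrophages.

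Enpp4, the gene of a membrane-bound nucleotide pyrophosphatase or phosphodiesterase, was the 1 gene of the 10 that set the CD103int DC at least 2-fold apart from cDC2 (ENSMUSG00000023961.16, chromosome 17, 44096308 to 44105809, minus strand). It was at 5.54 (4.95 to 6.18) CPM in CD103int DC, 10.9 (9.98 to 11.8) in cDC1, 14.03 (12.98 to 15.2) in cDC2 and 11.3 (10.4 to 12.2) in macrophages. The CD103int DC level was 2.53-fold (2.21 to 2.91) below cDC2, 2.03-fold (1.77 to 2.34) below macrophages and 1.97-fold (1.71 to 2.27) below cDC1. Only the first of these met the rule on log2(CPM + 1), at -1.20, and the others were -0.91 and -0.86. They passed it at -1.01 with an added 0.1 in place of 1 (macrophages) and at -1.03 with equal protein-coding totals (cDC1). Its neighbour Enpp5 was highest in cDC1, at 5.24 CPM, and stood at 2.16 in cDC2, 0.906 in CD103int DC and 0.476 in macrophages.

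The order of the libraries was thus not the same for all 10 genes. The cDC2 library had the highest level of 5 of them, macrophages of 4, cDC1 of 1 and the CD103int DC of 0, beside 15.9%, 31.8%, 34.0% and 18.3% of the 13288 genes that reached 1 CPM somewhere. The lowest level fell in cDC1 for 4, in CD103int DC for 3, in macrophages for 3 and in cDC2 for 0, beside 36.9%, 16.6%, 31.0% and 15.5% of genes. With equal totals, or with equal protein-coding totals, P2ry12 and P2ry14 were highest in cDC1 and P2rx4 in cDC2. The cDC2 library then had 5, cDC1 3, macrophages 2 and the CD103int DC 0, and the tally of lowest levels stayed as it was. With equal totals the shares of all genes at their highest were 19.5%, 45.0%, 16.9% and 18.6% in the same order. Lowest there were 26.6% of genes in cDC1, 13.4% in CD103int DC, 49.9% in macrophages and 10.1% in cDC2. Counting error left unseparated the top pair for P2rx4 and P2ry14 and the bottom pair for P2ry6 (ratio 1.03, 0.981 to 1.07).

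The wider pathway was described with a list of 60 genes of purinergic signalling that includes the 10, of which 41 were in the table. The list also takes in 6 P2Y-related or neighbouring genes, of which 4 were in the table: Gpr34, Gpr171, Gpr183 and Med12l. Against cDC1, 18 of 40 measured list genes were at least 2-fold apart in the CD103int DC, 7 higher and 11 lower (median -0.25), beside 16.8% of all genes. Of the 11 lower, 3 came from the related or neighbouring genes (median -1.44), which gave none of the 7 higher. Against cDC2, 2 of 39 list genes were that far apart, 1 in each direction (median -0.15), beside 2.93% of all genes. Against macrophages they were 5 of 38 (13.2%), 1 higher and 4 lower (median -0.015), close to the 11.8% of all genes. Relative to cDC1, the CD103int DC had more of all 3 measured P2X genes, P2rx5 among them (4.34 against 1.47 CPM). Unlike P2rx4 and P2rx7, P2rx5 was lowest in macrophages, at 0.989 CPM, 4.38-fold (3.25 to 5.997) below the CD103int DC. The ADP receptor gene P2ry1 was the only list gene at least 2-fold higher than in cDC2, at 8.66 (7.91 to 9.45) against 3.01 (2.53 to 3.55) CPM, with 3.42 in cDC1 and 7.59 in macrophages. Among the DC libraries the CD103int DC was thus the highest for P2ry1 and the lowest for P2ry12.

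Enzymes and transporters of the list included genes on both sides when the CD103int DC was compared with cDC1, where 10.1% of all genes were higher and 6.77% lower. The list groups genes of the Entpd and Enpp families with Nt5e, Cd38 and Bst1 as ectonucleotidases. The grouping takes no account of where in the cell the enzymes act. Of 12 measured genes of this group, 1 was higher (Entpd1) and 3 were lower, Entpd3 (1.64 against 15.0 CPM), Enpp1 (2.19 against 8.17) and Enpp5. In cDC1, Entpd3, which encodes another ATP- and ADP-splitting enzyme, stood at 4.001 CPM per kb of exon beside 16.2 for Entpd1. Of 8 adenosine handling genes, Slc28a2, which encodes a concentrative nucleoside transporter, was higher (41.4 against 10.03 CPM) and Dpp4, whose product CD26 binds adenosine deaminase, was lower (38.6 against 119), and these 2 of 8 stand beside 16.8% of all genes. Slc28a2 was 5.72-fold (5.48 to 5.98) lower in the CD103int DC than in macrophages, where it stood at 237 CPM. Panx1, the gene of a channel through which ATP leaves cells, was at 15.8 CPM in the CD103int DC, 17.9 in cDC2, 21.3 in macrophages and 36.3 in cDC1. Gpr183, the gene of an oxysterol receptor that guides the migration of immune cells, had the widest log2(CPM + 1) difference of the list in this pair, -2.72. It was at 34.0 CPM in the CD103int DC and 230.2 in cDC1 (6.77-fold, 6.45 to 7.11), with 37.9 in cDC2 and 65.3 in macrophages. As a ratio of CPM the gap of Entpd3 was wider, 9.18-fold (7.40 to 11.5).

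**Figure D4:**
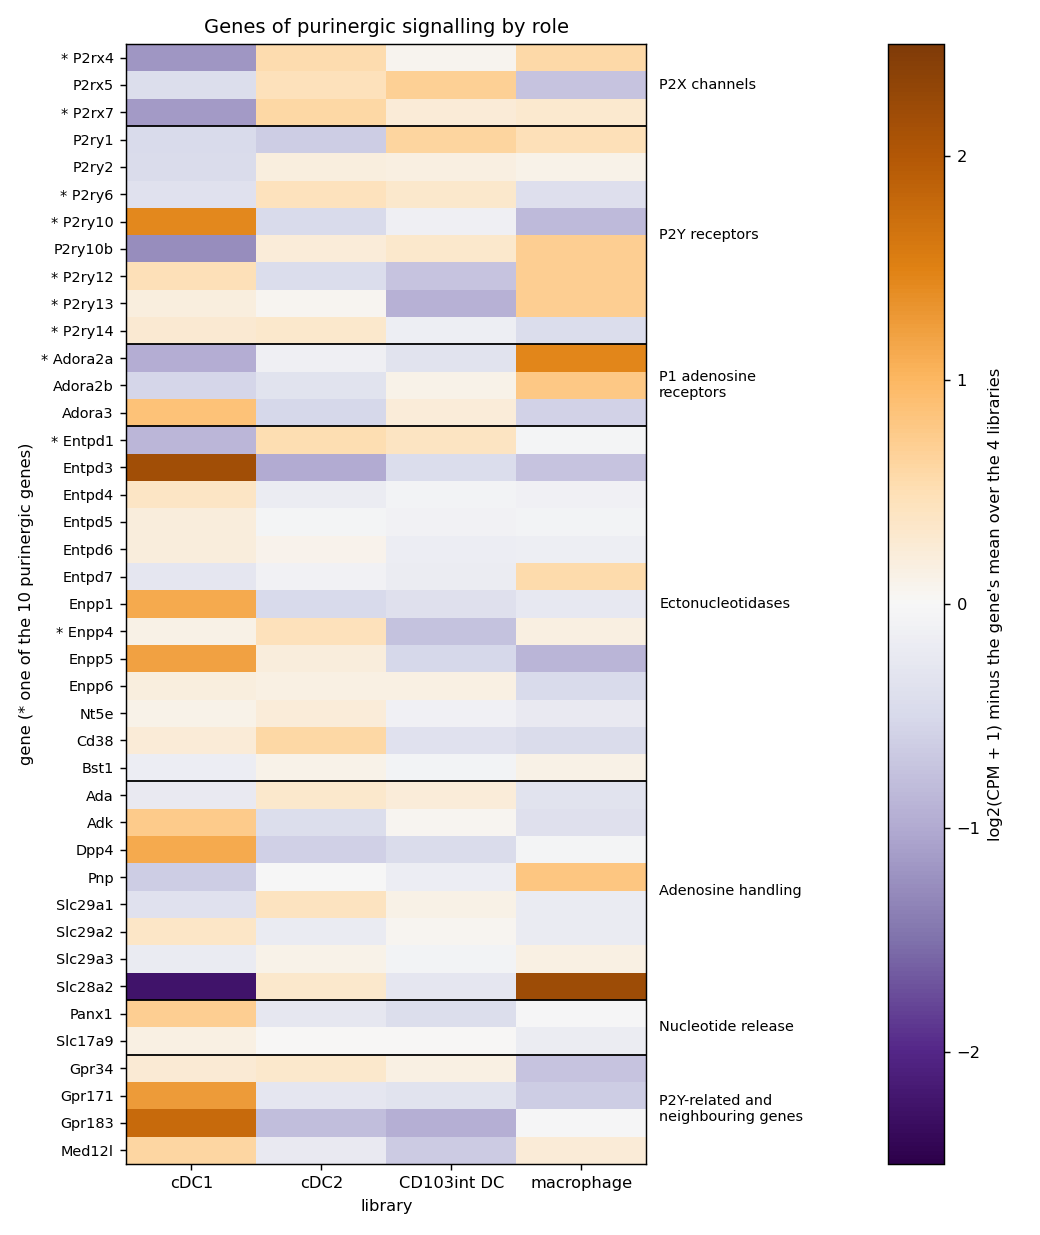
Levels of the 41 listed genes (rows, grouped by role; stars mark the 10 genes) in the 4 libraries (columns), as log2(CPM + 1) minus the gene's mean over the libraries. Slc28a2 runs from 10.03 CPM in cDC1 to 237 CPM in macrophages, and Entpd3 is at 15.0 CPM in cDC1 and at most 1.64 CPM elsewhere.

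Genes with the most similar pattern were taken for those of the 10 with a range of at least 2 on log2(CPM + 1), which were P2ry10 and Adora2a, by the root mean square difference of log2(CPM + 1) after each gene's mean over the 4 libraries was subtracted. Among 8439 other protein-coding genes, P2ry10 was nearest to Kif1a (0.063), Hs3st3b1 (0.066) and Ptk2 (0.095). Kif1a stood at 20.0 CPM in CD103int DC, 68.2 in cDC1, 16.4 in cDC2 and 13.5 in macrophages. Adora2a was nearest to Phf11d (0.093), Herc6 (0.094) and Ldlrad3 (0.095), and Herc6 stood at 44.0 CPM in CD103int DC, 31.1 in cDC1, 60.5 in cDC2 and 159.5 in macrophages. Each likeness rests on 4 libraries.

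Several of the 10 genes are also used by other cells: P2ry10 and Adora2a by lymphocytes, P2ry12 by platelets and microglia. The 6 T cell markers in the table summed to 1.25 CPM in CD103int DC, 16.0 in cDC1, 12.2 in cDC2 and 5.64 in macrophages, and no marker was at 0. The 5 NK cell markers summed to 0.853 CPM in CD103int DC, 11.01 in cDC1, 11.7 in cDC2 and 3.61 in macrophages, with Klrb1c at 0 in cDC1. Of 6 B cell markers 1 was in the table, Cd79b, at 1.43 to 3.68 CPM. Of 7 platelet markers 2 were in the table, Pf4 and Ppbp, which summed to at most 5.02 CPM (cDC2) and were both at 0 in cDC1, the library with the most genes listed at 0, where P2ry12 stood at 10.03 CPM. The 3 plasmacytoid DC markers in the table (Tcf4, Ccr9 and Siglech) summed to 573 CPM in cDC1 and to between 65.6 and 116 CPM elsewhere, and were like P2ry10 highest in cDC1. Tcf4 alone made 501 of the 573 CPM, with Ccr9 at 56.5 and Siglech at 15.0 CPM in cDC1. The endothelial markers in the table were 2 of 4, Kdr and Cdh5, which summed to 442 CPM in cDC1, 112 in cDC2, 65.2 in CD103int DC and 242 in macrophages. Kdr alone made 425 of the 442 CPM in cDC1, with Cdh5 at 16.6 CPM. The microglia-type marker Tmem119 was at 4.02 CPM in CD103int DC, 0.285 in cDC1, 3.45 in cDC2 and 2.47 in macrophages, and the 5 such markers in the table summed to between 143 CPM (macrophages) and 337 CPM (CD103int DC, led by Fcrls). The part of such cells in the levels of the 10 genes was not tested.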

How the data were processed

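RNA from 4 sorted populations was sequenced, with 1 library each. Column extraction, DNase I treatment and a directional (strand-keeping) library kit were used, per the labels' protocols. The authors deposited 1 table of 13976 genes as an expression signal, which its name calls filtered CPM with TMM scaling (a trimmed mean of log ratios). For the aligner, the counter, its strand setting and the build, each is not given in the sources used here. Coordinates and merged exon lengths came from GENCODE M21 (GRCm38), which held the identifier and symbol of all 13976 genes. Every value was a multiple of a hundredth of a step taken as 1 read, but only 70.6% to 79.0% of values above 0 were whole reads (tolerance 0.001), so no count test was run. Differences were taken on log2(CPM + 1), which understates changes of low genes, and folds of single genes are ratios of CPM. The alternatives were 3 rescalings of the columns, an added 0.1 in place of 1 and a minimum of 10 CPM, and later the sum of P2ry10 and P2ry10b. All 10 genes are named, and other genes of the pathway when at least 2-fold apart in a pair with the CD103int DC or when neighbours or paralogs. For members with at least 10 CPM and a range of at least 2, the 3 most similar genes are named. The 10 genes and the lists were chosen with earlier results of these data known. The counting of differences was tested on simulated data. Python 3.11.15, pandas 2.3.3, NumPy 2.4.6, SciPy 1.17.1 and Biopython 1.88 were used.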

Additional observations from a re-analysis of the deposited data

How the results depend on the processing

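The count of genes at least 2-fold apart in the CD103int DC against cDC2 was 1 as deposited and 2 with an added 0.1 in place of 1, where P2ry13 joined Enpp4 (for P2ry13 -1.03 in place of -0.97), because the smaller number added shrinks differences less. The share of all genes at least 2-fold apart in that pair moved likewise, from 2.93% to 5.40%. In the 5 other pairs the counts moved by at most 1 gene under the rescalings, the other added value, the minimum of 10 CPM and the sum of P2ry10 with P2ry10b, which was chosen after the data were seen. For cDC2 and macrophages, equal totals lost P2ry12 and gained P2ry6 and P2ry14. Of 60 single differences, equal totals changed the sign of 5 and the side of the 2-fold rule of 5, equal protein-coding totals likewise 5 and 5, and median-ratio scaling 0 and 0. No difference that met the rule changed sign. The sum with P2ry10b turned the difference of P2ry10 between cDC2 and macrophages from 0.34 to -0.0089. No paired analysis was possible because each population had 1 library, and no replicate could be left out. Counting error was small beside most folds, and it does not stand for the spread between animals or sorts.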
